A study of Homo sapiens with 6 samples.

Results

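The genes described here are 50 genes of DNA replication and of the passage from G1 into S phase, chosen by symbol from a table of 60606 genes. They cover the MCM2-7 helicase (6 genes), origin licensing (5), helicase activation by GINS, CDC45 and MCM10 (6), the replicative polymerases and primase (9), the sliding clamp and its loaders (7), single-strand binding and Okazaki fragment joining (5), fork checkpoint mediators (3), chromatin assembly and histone mRNA (5), and the G1/S regulators CCNE1, CCNE2, E2F1 and E2F2 (4). All 50 were found and all 50 passed the filter on low values. RNA-seq was done on xenografts of the human breast cancer line MDA-MB-231, injected with Matrigel under the skin of the left flank of NSG mice (NOD/SCID/IL2Rγ-null), which lack T, B and natural killer cells but keep myeloid cells. In 3 tumors a local X-ray dose of 10 Gy was given at about 800 mm3 and the tumor was collected 3 days later, and 3 control tumors were not irradiated. The cells of both groups were wild-type, no volume or time of collection is recorded for the controls, and the mice's age and sex are not stated. Separate mice are not stated either, so a p-value measures only the spread between samples, which may be technical. Levels are TPM, a share of all transcripts after scaling for gene length. The number of reads behind them is unknown, because TPM keeps no depth.

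Replication of each chromosome starts at origins that are licensed in G1, when ORC, CDC6 and CDT1 load the MCM2-7 ring onto DNA. In S phase, CDC45 and GINS turn the ring into an active helicase, primase and polymerase alpha lay down primers, polymerases epsilon and delta extend them behind the PCNA clamp, and FEN1 and LIG1 finish the lagging strand. Transcription of many of these genes is driven by E2F factors once cyclin-dependent kinases release them from RB, and geminin (GMNN) binds CDT1 to prevent a second round of licensing.

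Markers of MDA-MB-231 cells and breast lineage were read first, and their levels alone do not identify the line. The mesenchymal marker VIM was at 3148 to 5283 TPM and the keratin KRT18 at 428 to 721 TPM. The hormone receptors ESR1 and PGR were at 0.32 TPM or less and CDH1, the epithelial cadherin that MDA-MB-231 lacks, at 0.21 TPM or less. Not all epithelial and receptor genes were that low, with ERBB2 at 25.4 to 40.7 TPM and EPCAM at 2.90 to 5.10 TPM. Among 6 tumors, control tumor 2 stood apart. It lay at -51.8 on the second principal component (19.1% of the variance), against -0.716 to 20.4 for the others, and ribosomal protein genes took 27.0% of its TPM, against 19.9% to 22.3%. Results that rest on it are given with and without it.

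Most of the 50 genes had lower values after irradiation, and 1 of them, GMNN, fell by limma's test. Their summed level was 2449, 1606 and 2318 TPM in control tumors 1 to 3, and 1571, 1769 and 1619 TPM in irradiated tumors 1 to 3. Control tumors 1 and 3 were thus the highest of the 6, while control tumor 2 lay among the irradiated tumors. Fold changes compare log2(TPM + 1) of irradiated with control tumors, a scale that understates the changes of weakly expressed genes. They were below 0 in 46 of the 50 genes, against 55.7% of the 14140 genes tested. Their median was -0.33 (range -0.81 to 0.75), and that of all genes tested was -0.056. Of the 50, 1 fell and 0 rose at an adjusted p of 0.05 over all genes, while 1.61% of all genes fell and 1.37% rose, so the share of called members was near the background. At an unadjusted p under 0.05 there were 12 members, against 20.5% of all genes. All 3 irradiated tumors lay below all 3 controls in 11 members (22.0%; 15.0% of all genes) and above them in 1, PRIM1 (11.6% of all genes), which made 12 of 50 (24.0%) against 26.6% of all genes in either direction. In bulk tumors, fewer cells in S phase and less RNA per cell cannot be told apart.

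**Figure D1:**
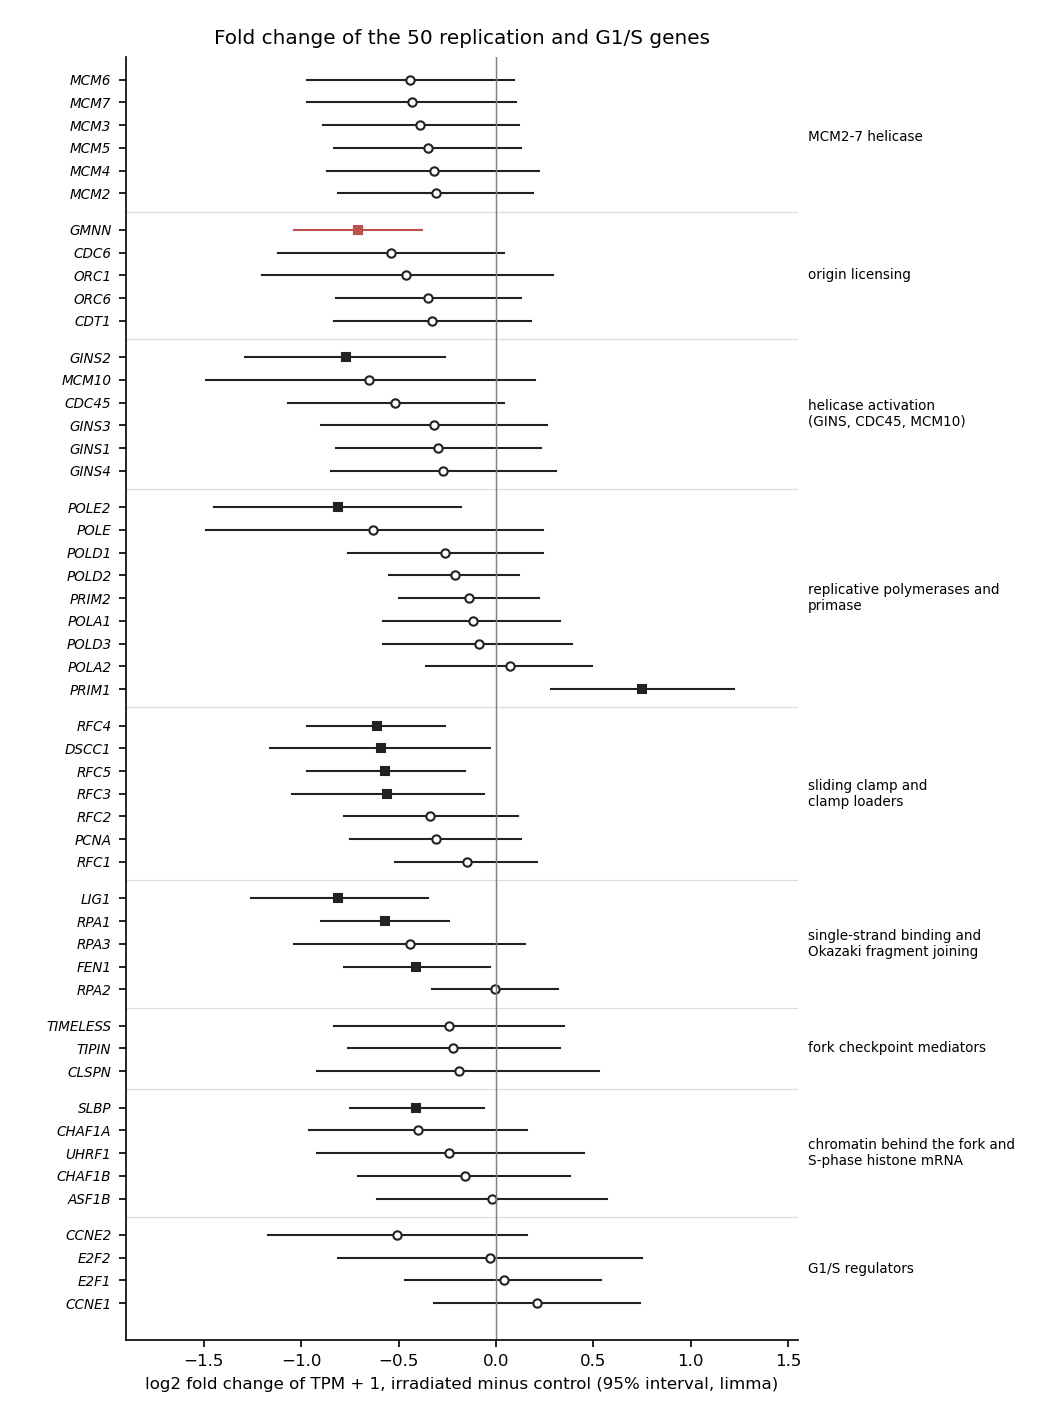
Log2 fold change of TPM + 1 (horizontal axis, irradiated minus control) for the 50 genes, grouped by role, with limma's 95% interval as a line (n = 3 tumors per group). Filled squares mark the 12 genes whose groups did not overlap, and GMNN, in red, is the 1 gene with an adjusted p under 0.05. The points of 46 genes lie left of 0, and PRIM1 lies farthest to the right.

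Each tumor's place within the set was alike across most genes. Relative to the mean over the 6 tumors, the median of the 50 genes was 0.41, -0.24 and 0.32 on the log2 scale in control tumors 1, 2 and 3, and -0.22, -0.06 and -0.20 in irradiated tumors 1, 2 and 3. For all genes tested the same medians ran from -0.13 (control tumor 2) to 0.16 (control tumor 1). Control tumor 1 held the highest value of the 6 in 29 of the 50 genes and control tumor 3 in 17, and the lowest value was in control tumor 2 in 19 genes. Control tumor 2 was the lowest control in 46 of the 50 (57.3% of all genes) and lay below every irradiated tumor in 19 (40.6% of all genes). Control tumors 1 and 3 both lay above all irradiated tumors in 43 of the 50 (31.4% of all genes). No library label, date or run that could mark a batch is given. Of the 7 tested markers of MDA-MB-231 cells and breast lineage, 3 had groups that did not overlap, all lower, against 15.0% of all genes. They were VIM (-0.46, limma adjusted p = 0.141), CD44 (-0.44, 0.129) and AXL (-0.53, 0.104), and none of the 7 passed. KRT8 (0.21), KRT18 (0.08), ERBB2 (0.08) and EPCAM (-0.37) overlapped. Muscle and fibroblast markers also differed between the groups. All 10 skeletal muscle markers had groups that did not overlap, all lower, against 15.0% of all genes, and 3 of the 10 passed. Their sums were 151, 202 and 426 TPM for control tumors 1 to 3. After irradiation, tumors 1 and 3 held only 2.11 and 2.32 TPM, while tumor 2 held 106 TPM. The 8 fibroblast markers summed to 477 to 1005 TPM in controls and 133 to 215 TPM in irradiated tumors, nearly all of it from COL1A1, COL1A2 and COL3A1, which fell (limma adjusted p = 0.0194, 0.0112 and 0.0151). Of the other fibroblast markers, FAP was lower in every irradiated tumor without passing, PDGFRB had a fold change of 0.95 (limma adjusted p = 0.211), DCN overlapped, and PDGFRA and LUM stayed at 0.22 TPM or less, LUM at 0 in all 3 controls. Leukocyte markers, mostly CD68, summed to 90.1 to 108 TPM in controls and 108 to 208 TPM in irradiated tumors, where PTPRC was at 0.04 to 0.25 TPM. The list was mixed and none passed. CD68 (0.61, limma adjusted p = 0.210) and ADGRE1 (0.64, 0.105) had fold changes above 0. Those of CSF1R (-0.13, limma adjusted p = 0.874) and LYZ (-0.99, 0.289) were below 0. Of the tested leukocyte markers, only ADGRE1 had groups that did not overlap. The 6 endothelial markers summed to at most 9.30 TPM in any tumor and the fat cell markers to at most 1.00 TPM, with ADIPOQ and LEP at 0 in all 6. The part of these cells, and of the ribosomal share, in the values of the replication genes was not tested. Host cells in a xenograft are those of the mouse, and no filter on mouse reads is given. The part of mouse reads in the values of the muscle, fibroblast and leukocyte markers was not tested. Those values are thus not measures of cell amounts.

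**Figure D2:**
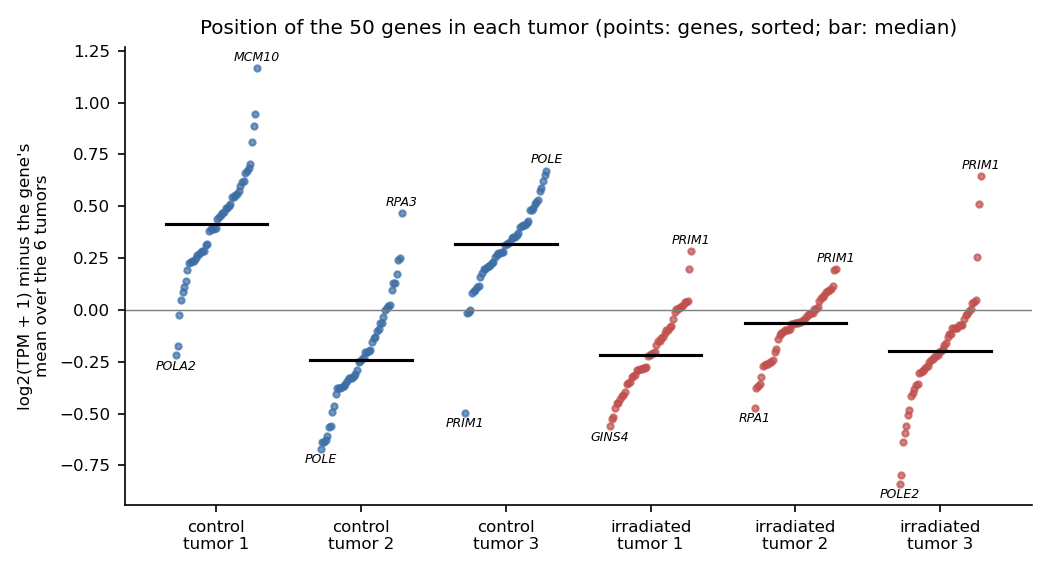
Each point is 1 of the 50 genes in 1 tumor, plotted as log2(TPM + 1) minus the gene's mean over the 6 tumors (vertical axis, log2) and sorted within the tumor, with the median as a bar. The medians of control tumors 1 and 3 lie at 0.41 and 0.32, and those of the other 4 tumors between -0.24 and -0.06, with control tumor 2 the lowest of all 6.

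Leaving out control tumor 2 changed the count. It was the lowest control in 46 of the 50 genes (57.3% of all genes), so its removal by itself lowered their fold changes. The calls made without control tumor 2, here and below, are thus no separate support for a fall. Without this tumor, 8 of the 50 genes fell by limma's test, against 3.95% of all genes, namely CDC6, CHAF1A, GMNN, LIG1, MCM7, ORC1, POLE and RFC5. The median of the 50 was then -0.56, with -0.131 for all genes. Fold changes were then below 0 in 47 of the 50. Leaving out another tumor gave 0 calls among the 50 and a median between -0.37 and -0.23. Over all genes, those fits called 0.575% lower without control tumor 1, 0.540% without control tumor 3, and 0.475%, 0.800% and 0.495% without irradiated tumors 1, 2 and 3.

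**Figure D3:**
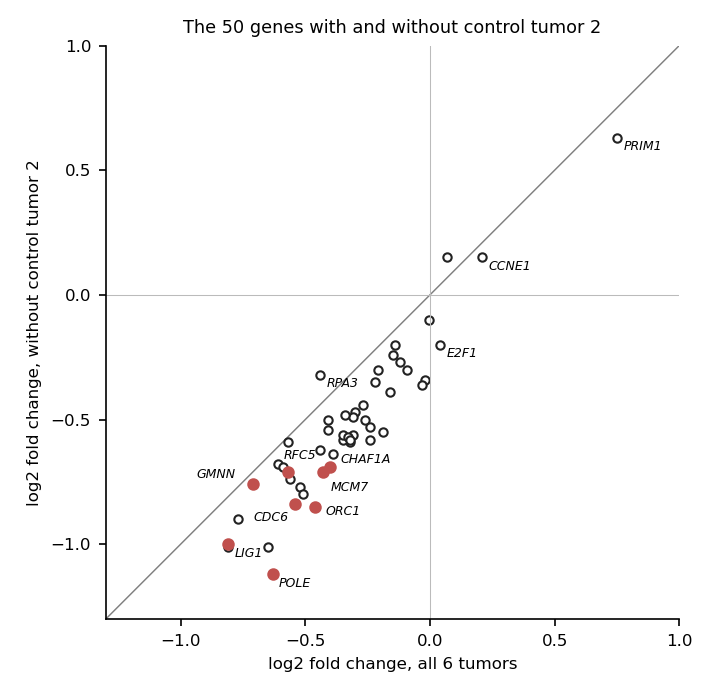
Log2 fold change of the 50 genes with all 6 tumors (horizontal axis) against the fold change without control tumor 2 (vertical axis), both irradiated minus control. Red points are the 8 genes that passed an adjusted p of 0.05 without that tumor, and the diagonal marks equal values. Most points lie below the diagonal, and the median moved from -0.33 to -0.56.

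Promoters are shown because many of the genes share E2F-type letters that the choice by symbol did not use. RefSeq promoters on GRCh38.p14 (250 bases before to 50 after each gene's start) were matched for 42 of the 50 genes. TTTCCCGC, TTTGCCGC, TTTGGCGC or TTTCGCGC, read on either strand, occurred in 22 of these 42 genes (52.4%), against 3.99% of 27305 genes in the same table. The CCAAT box, read as CCAAT on either strand, occurred in 26 (61.9%, against 39.7%). The CHR, read as TTTGAA or TTCGAA on either strand and known from promoters of late cell-cycle genes, occurred in 2 (4.76%, against 19.5%). The median log2 fold change was -0.33 in the 22 genes with an E2F match and -0.34 in the 20 without. The 27305 genes were not limited to those tested here and were not matched for base composition. The part of base composition in these shares was not tested. A match describes letters, not a bound site. The stretches below lie within 160 bases before the start of the RefSeq entry and outside GENCODE 29 exons, with E2F matches in capitals. For GMNN that start lies inside the longer GENCODE gene given further on. They are geminin, the called gene, with 1 match, chr6:24775253-24775412 (plus strand); MCM6, with 4 matches that overlap in 2 pairs on opposite strands, chr2:135876444-135876603 (minus strand); the clamp PCNA, with 1 match, chr20:5126627-5126782 (minus strand); E2F1 itself, with 1 match, chr20:33686405-33686545 (minus strand); and PRIM1, whose values ran the other way, with no match in the stretch, chr12:56752374-56752448 (minus strand).
GMNN: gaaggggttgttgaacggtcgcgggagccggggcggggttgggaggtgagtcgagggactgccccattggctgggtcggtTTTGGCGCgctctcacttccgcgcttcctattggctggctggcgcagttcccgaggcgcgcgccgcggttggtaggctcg
MCM6: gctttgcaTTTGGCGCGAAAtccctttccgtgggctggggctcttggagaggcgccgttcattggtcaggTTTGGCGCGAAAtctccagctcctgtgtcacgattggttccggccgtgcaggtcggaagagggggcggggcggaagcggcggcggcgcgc
PCNA: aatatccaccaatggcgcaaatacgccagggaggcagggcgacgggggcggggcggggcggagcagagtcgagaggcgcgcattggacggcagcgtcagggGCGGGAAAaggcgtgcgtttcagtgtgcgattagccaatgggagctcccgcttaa
E2F1: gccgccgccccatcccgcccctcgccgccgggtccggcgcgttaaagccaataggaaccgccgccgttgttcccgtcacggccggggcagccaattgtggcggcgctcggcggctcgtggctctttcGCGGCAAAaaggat
PRIM1: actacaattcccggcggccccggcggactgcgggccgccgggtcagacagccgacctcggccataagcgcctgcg

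Origin licensing held the called gene. The median of its 5 genes was -0.46, which was -0.76 without control tumor 2, -0.29 without control tumor 1 and -0.25 without control tumor 3. GMNN, the inhibitor of CDT1, on chromosome 6 from 24774931 to 24786099 (GRCh38, plus strand), stood at 47.6, 43.1 and 48.9 TPM in control tumors 1 to 3 and at 29.5, 29.8 and 25.1 TPM in irradiated tumors 1 to 3. The groups did not overlap, and control tumor 2 lay close to the other controls here. GMNN fell by 0.71 (SE 0.14, 95% interval -1.04 to -0.38, limma adjusted p = 0.0411). Without single tumors its fold change stayed between -0.76 and -0.63, and it passed again without control tumor 2 (limma adjusted p = 0.0361) but not when another single tumor was left out (0.108 to 0.126). The call was also lost with no filter on low values (limma adjusted p = 0.0728) and without the trend (0.0765).

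The loading factors did not pass with all 6 tumors. CDC6, the ATPase that recruits MCM rings, was at 44.8, 23.9 and 45.9 TPM in controls and 24.7, 27.6 and 22.4 TPM in irradiated tumors (-0.54, SE 0.25, limma adjusted p = 0.268). Control tumor 2 fell within the irradiated range, and without it CDC6 fell by 0.84 (limma adjusted p = 0.0314). CDT1, the partner that brings the rings to ORC, was at 35.4, 22.4 and 40.1 TPM in controls and 26.03, 26.25 and 22.98 TPM in irradiated tumors (-0.33, SE 0.22, limma adjusted p = 0.440). ORC1 and ORC6, subunits of the origin recognition complex, had fold changes of -0.46 and -0.35. The ratio of CDT1 to its inhibitor GMNN, chosen after values were seen and given with no test, was 0.743, 0.519 and 0.820 in the controls and 0.884, 0.882 and 0.917 in the irradiated tumors. Its groups did not overlap, and the irradiated tumors were the higher ones.

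The 6 MCM2-7 subunits, which form the ring of the helicase, lay together. Their summed level was 700, 399 and 668 TPM in controls and 391, 473 and 455 TPM in irradiated tumors. Control tumors 1 and 3 lay above all irradiated tumors in each of the 6 genes, and control tumor 2 lay within or below the irradiated range in each. Fold changes ran from -0.44 to -0.31 with a median of -0.37, and 0 of 6 passed. MCM7 had the highest level per length of the 6, at 239, 139 and 254 TPM in controls and 128, 162 and 165 TPM in irradiated tumors (-0.43, SE 0.23, limma adjusted p = 0.338). MCM6 had the lowest, at 34.5, 20.1 and 25.2 TPM against 15.1, 21.2 and 21.0 TPM (-0.44, SE 0.23, limma adjusted p = 0.319). MCM2 was at 79.2, 44.0 and 70.3 TPM in controls and 45.7, 53.8 and 51.7 TPM in irradiated tumors (-0.31, SE 0.22, limma adjusted p = 0.463). Across the tumors, MCM7 took 32.8% to 38.0% of the 6-gene sum, MCM2 10.5% to 11.7% and MCM6 3.77% to 5.03%. The shares of MCM3, MCM4 and MCM5 were 14.4% to 17.1%, 16.5% to 18.6% and 14.5% to 18.3%. Without control tumor 1 the median was -0.21, and without control tumor 2 it was -0.60 and MCM7 fell by 0.71 (limma adjusted p = 0.0449).

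Helicase activation factors had a median of -0.42 (-0.68 without control tumor 2 and -0.18 without control tumor 1), and 0 of 6 passed. GINS2, 1 of 4 GINS subunits, was at 14.0, 9.63 and 11.9 TPM in controls and 5.99, 8.39 and 5.25 TPM in irradiated tumors, with no overlap (-0.77, SE 0.22, limma adjusted p = 0.104). Its partners GINS1, GINS3 and GINS4 lay between -0.32 and -0.27 and each overlapped, although the complex holds the 4 subunits in equal numbers. CDC45, which joins GINS on the ring, was at 39.5, 22.9 and 39.5 TPM in controls and 20.3, 28.3 and 20.6 TPM in irradiated tumors (-0.52, SE 0.24, limma adjusted p = 0.276), with control tumor 2 among the irradiated ones. MCM10, needed for the activated helicase to start unwinding, had a fold change of -0.65, with control tumor 1 at 17.2 TPM and the other 5 tumors at 4.68 to 8.35 TPM.

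**Figure D4:**
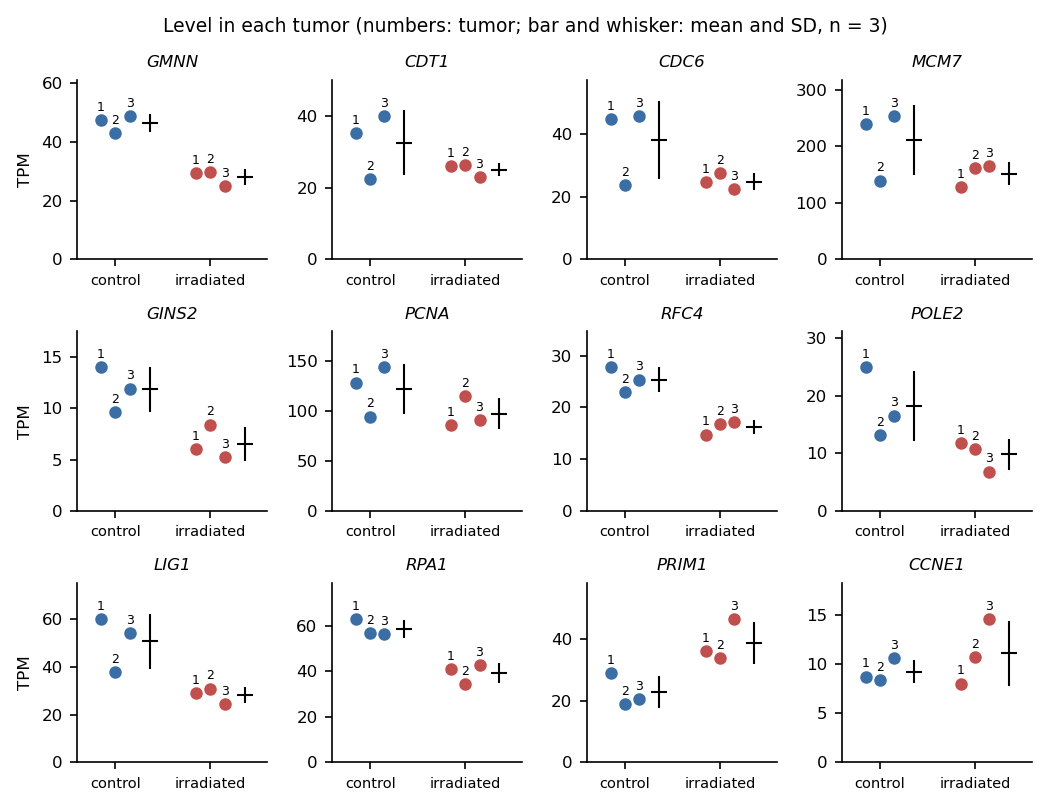
TPM (vertical axes, from 0) of 12 of the genes in each of the 3 control and 3 irradiated tumors, with tumor numbers above the points and the mean ± SD (n = 3) beside each group. GMNN, GINS2, RFC4, POLE2, LIG1 and RPA1 are lower in every irradiated tumor than in every control, including control tumor 2. In CDC6 and MCM7 control tumor 2 lies among the irradiated tumors, and in CDT1 it lies below all of them. PRIM1 is higher in every irradiated tumor.

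The 9 polymerase and primase genes had fold changes from -0.81 to 0.75, with a median of -0.14 (-0.30 without control tumor 2), and 0 of 9 passed. PRIM1, the catalytic subunit of primase, on chromosome 12 from 56731596 to 56752373 (GRCh38, minus strand), was at 28.95, 19.01 and 20.61 TPM in controls and 36.1, 33.9 and 46.6 TPM in irradiated tumors. All irradiated tumors lay above all controls, and it had the highest fold change of the 50 (0.75, SE 0.20, limma adjusted p = 0.0911), which did not pass. With values scaled by medians of ratios it passed (0.80, limma adjusted p = 0.044). The other 3 subunits of the polymerase alpha and primase complex stayed nearer 0, with PRIM2 at -0.14 (95% interval -0.50 to 0.22), POLA1 at -0.12 (-0.58 to 0.33) and POLA2 at 0.07 (-0.36 to 0.49). The ratio of PRIM1 to PRIM2, chosen after values were seen, was 1.58, 1.18 and 1.15 in controls and 2.12, 2.09 and 3.31 in irradiated tumors. In GENCODE 29, 33 exonic bases of PRIM1 (1.35%) lie within NACA on the same strand, a gene at 641 to 1136 TPM whose fold change was -0.47 (limma adjusted p = 0.149), and 14.85% lie within an unnamed gene listed at 0 TPM in all 6 tumors. POLA2 shares 35.14% of its exonic bases with another gene, so its value is uncertain.

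Polymerase epsilon, the leading-strand enzyme, had lower values in its 2 core subunits. POLE, the catalytic subunit, was at 35.1, 10.8 and 28.9 TPM in controls and 13.7, 13.4 and 15.1 TPM in irradiated tumors (-0.63, SE 0.38, limma adjusted p = 0.384), and without control tumor 2 it fell by 1.12. POLE2, the second subunit, was at 25.0, 13.1 and 16.6 TPM in controls and 11.8, 10.8 and 6.84 TPM in irradiated tumors, with no overlap (-0.81, SE 0.28, limma adjusted p = 0.149). The accessory subunits POLE3 and POLE4, histone-fold proteins outside the 50 genes, had fold changes of -0.30 (limma adjusted p = 0.329) and 0.26 (0.352). In polymerase delta, which extends the lagging strand, POLD1, POLD2 and POLD3 had fold changes of -0.26, -0.21 and -0.09, and the groups of each overlapped. POLD4, its smallest subunit and not among the 50, was at 42.4, 57.8 and 47.3 TPM in controls and 110, 85.4 and 78.2 TPM in irradiated tumors. It rose by 0.87 (SE 0.18, limma adjusted p = 0.0433), and passed again without control tumor 2, but not when another single tumor was left out (limma adjusted p = 0.0754 to 0.149), with medians of ratios (0.0736), with no filter on low values (0.118) or without trend (0.0832). POLD4 shares 21.32% of its exonic bases with another gene on the same strand, whose fold change was 0.19 (limma adjusted p = 0.681).

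**Figure D5:**
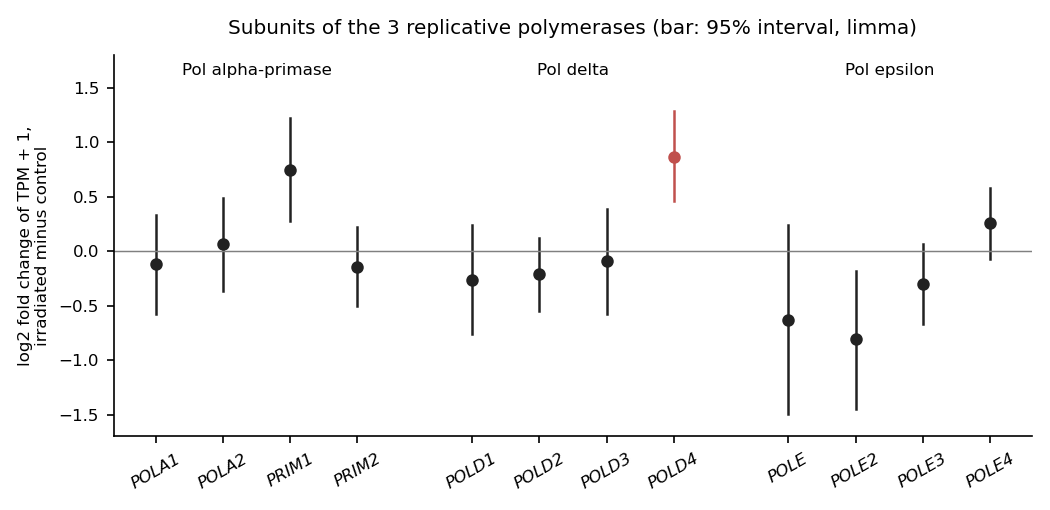
Log2 fold change of TPM + 1 (irradiated minus control, limma's 95% interval, n = 3 per group) of the subunits of polymerase alpha with primase, polymerase delta and polymerase epsilon, including POLD4, POLE3 and POLE4 from the comparison lists. PRIM1 (0.75) and POLD4 (0.87) lie above 0 while POLE (-0.63) and POLE2 (-0.81) lie below it.

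Clamp and clamp loader genes had a median of -0.56 (-0.68 without control tumor 2 and -0.34 without control tumor 1), and 0 of 7 passed. In 4 of 7 the groups did not overlap, all lower, against 15.0% of all genes. RFC4, a subunit of the RFC clamp loader, was at 27.7, 22.9 and 25.3 TPM in controls and 14.7, 16.7 and 17.1 TPM in irradiated tumors (-0.61, SE 0.15, limma adjusted p = 0.0758). RFC5, another subunit, was at 45.7, 30.3 and 37.0 TPM in controls and 25.95, 23.51 and 24.99 TPM in irradiated tumors (-0.57, SE 0.18, limma adjusted p = 0.123). In both genes control tumor 2 stayed above every irradiated tumor. RFC3 (-0.56) and DSCC1 (-0.59), a subunit of an alternative clamp loader needed for sister chromatid cohesion, also did not overlap, while RFC1, the largest subunit of RFC, had -0.15 (95% interval -0.52 to 0.21). PCNA, the clamp itself, was at 128, 94.0 and 143 TPM in controls and 85.7, 115 and 90.9 TPM in irradiated tumors, which overlapped (-0.31, SE 0.19, limma adjusted p = 0.393).

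Among the 5 genes of lagging-strand joining and single-strand binding, LIG1, RPA1 and FEN1 had groups that did not overlap, all lower, against 15.0% of all genes, and 0 passed. The median of the 5 was -0.44 (-0.54 without control tumor 2). LIG1, the ligase that seals Okazaki fragments, on chromosome 19 from 48115445 to 48170603 (GRCh38, minus strand), was at 60.0, 37.9 and 54.0 TPM in controls and 29.03, 30.83 and 24.35 TPM in irradiated tumors. Its fold change of -0.81 (SE 0.20, limma adjusted p = 0.0726) did not pass, and LIG1 fell with medians of ratios (-0.76, limma adjusted p = 0.0418) and without control tumor 2 (limma adjusted p = 0.0237). RPA1, the large subunit of the single-strand binding protein, was at 63.0, 56.7 and 56.1 TPM in controls and 40.8, 34.2 and 42.8 TPM in irradiated tumors, with no overlap (-0.57, SE 0.14, limma adjusted p = 0.0772). RPA2, its partner in the same trimer, was at 56.4, 47.3 and 60.9 TPM against 55.4, 52.1 and 55.9 TPM (-0.0038, 95% interval -0.33 to 0.32), and RPA3, the smallest subunit, had -0.44 with overlapping groups. FEN1, the flap nuclease, had -0.41 with no overlap, though control tumor 2 exceeded irradiated tumor 2 only by 56.9 to 56.7 TPM.

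The 3 fork checkpoint mediators had a median of -0.22 and the 5 chromatin factors of -0.24, and none passed. Without control tumor 2 these medians were -0.53 and -0.50, and without control tumor 1 they were -0.03 and -0.09. TIMELESS and TIPIN, which travel with the fork and link it to checkpoint signalling, had fold changes of -0.24 (SE 0.26, limma adjusted p = 0.635) and -0.22 (SE 0.24, 0.640), with levels of 14.5 to 30.2 and 11.3 to 15.7 TPM in controls and 17.5 to 21.0 and 8.29 to 14.6 TPM in irradiated tumors. TIPIN's direction rested on irradiated tumor 3, without which it was 0.01. CLSPN, the adaptor that activates CHK1, had -0.19. SLBP, which binds the stem-loop of S-phase histone mRNAs, was at 44.0, 37.0 and 46.0 TPM in controls and 31.28, 28.96 and 34.58 TPM in irradiated tumors, with no overlap (-0.41, SE 0.15, limma adjusted p = 0.178). CHAF1A, the large subunit of the histone chaperone CAF-1, was at 41.9, 22.6 and 41.6 TPM in controls and 26.2, 28.1 and 22.8 TPM in irradiated tumors (-0.40, SE 0.25, limma adjusted p = 0.395), and without control tumor 2 it fell by 0.69 (0.0487). CHAF1B, ASF1B and UHRF1 lay between -0.24 and -0.02, each with control tumor 2 as the lowest of the 6.

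The 4 G1/S regulators had a median of 0.0042, which was -0.28 without control tumor 2 and 0.24 without control tumor 3, and 0 of 4 passed. CCNE1, a cyclin that activates CDK2 at the start of S phase, was at 8.75, 8.40 and 10.7 TPM in controls and 8.05, 10.7 and 14.7 TPM in irradiated tumors (0.21, SE 0.23, limma adjusted p = 0.640). CCNE2, its close relative, was at 6.32, 3.22 and 7.14 TPM in controls and 2.88, 4.25 and 3.31 TPM in irradiated tumors (-0.51, SE 0.29, limma adjusted p = 0.360). Both overlapped between the groups, and 37.05% of the exonic bases of CCNE2 lie opposite INTS8, so its reads may be shared where strand was not used. E2F1, an activator of this gene program, was at 28.6, 18.8 and 34.5 TPM in controls and 26.01, 28.80 and 26.87 TPM in irradiated tumors (0.04, 95% interval -0.47 to 0.54, limma adjusted p = 0.944). Its direction turned without control tumor 2, to -0.20, and without irradiated tumor 2, to -0.0017. E2F2 stayed at 0.65 to 2.82 TPM.

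Of 117 further genes around the same pathway, in 7 lists, 116 were tested, 2 rose and 3 fell, and the median log2 fold change was -0.34. The groups did not overlap in 41 of the 116 (35.3%; 38 lower and 3 higher), against 26.6% of all genes. None of the 15 other licensing and firing factors passed (median -0.35), nor of the 9 checkpoint genes (-0.20) or the 16 of nucleotide supply (-0.23), against 2.98% of all genes in either direction. In these 3 lists 4 (26.7%), 4 (44.4%) and 6 (37.5%) genes had groups that did not overlap, all lower, against 15.0% of all genes. Among 17 other fork enzymes POLD4 alone passed (median -0.30). Among 21 tested of 22 other G1/S regulators CCND3 alone passed (median -0.24). CCND3, a D-type cyclin that activates CDK4 and CDK6 in G1, was at 72.4, 52.6 and 76.7 TPM in controls and 152, 155 and 165 TPM in irradiated tumors. The lowest irradiated tumor lay far above the highest control, and CCND3 rose by 1.23 (SE 0.16, limma adjusted p = 0.0097), a call kept in every setting run, with adjusted p up to 0.0428. CCND1, the other D-type cyclin expressed here, was at 130, 141 and 128 TPM in controls and 86.4, 108 and 121 TPM in irradiated tumors (-0.35, limma adjusted p = 0.243). CCNA2, the cyclin of S and G2, had -0.62 with no overlap (limma adjusted p = 0.120). Leaving out control tumor 2, it fell (limma adjusted p = 0.0456), but it did not pass when another single tumor was left out (0.228 to 0.302).

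Genes of G2 and mitosis had a median of -0.47, and 2 of 32 fell, against 1.61% of all genes. UBE2S, which extends ubiquitin chains for the anaphase-promoting complex, was at 393 to 555 TPM in controls and fell to 117 to 190 TPM in irradiated tumors (limma adjusted p = 0.0132), and ANLN, a cytokinesis scaffold, fell by 0.87 (0.0485). UBE2S did not pass without control tumor 1 (limma adjusted p = 0.0584) or with no filter on low values (0.0666). ANLN did not pass when any one tumor but control tumor 2 was left out (limma adjusted p = 0.097 to 0.168), with no filter (0.123), without trend (0.0836) or with a pseudocount of 5 TPM (0.0551). The groups did not overlap in 13 of the 32 genes (40.6%), all lower, against 15.0% of all genes. MKI67, the proliferation marker, had -0.94 (limma adjusted p = 0.154), and it had control tumor 2 (18.95 TPM) within the irradiated range of 13.4 to 19.4 TPM. Without that tumor, the lowest control, MKI67 passed (-1.32, limma adjusted p = 0.0214). It did not when another single tumor was left out (-1.03 to -0.68, limma adjusted p = 0.244 to 0.376). Among 6 p53 targets linked to the cell cycle, MDM2, the ubiquitin ligase that degrades p53, fell by 0.90 (limma adjusted p = 0.0406), a call lost when any one tumor but control tumor 2 was left out (0.082 to 0.123), with no filter (0.0932) or without trend (0.0585). CDKN1A, the inhibitor p21, was at 58.4, 49.3 and 63.8 TPM in controls and 96.4, 75.6 and 62.2 TPM in irradiated tumors (0.43, limma adjusted p = 0.247). The fold changes of the 50 replication genes and of these lists come from the same 6 tumors and are given side by side, not as independent evidence.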

How the data were processed

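RNA was sequenced from 3 control and 3 irradiated xenografts, with Illumina TruSeq libraries of total RNA, per the labels' protocols. The authors deposited 1 table of TPM per gene, with hg38 as the build, and HISAT2, StringTie and RSEM are listed as tools, per the submitters' processing notes. Not given in the sources used here are their versions and order, the annotation, the strand setting and any filter on mouse reads. TPM is relative, so abundant genes that rise lower all others, and it keeps no depth, so no count test was run.

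The 14140 genes whose mean reached 1 TPM were fitted by limma (version 3.58.1, R 4.3.3) on log2(TPM + 1) with a mean-variance trend in eBayes, two-sided, with Benjamini-Hochberg adjustment over all of them at 0.05. All adjusted p-values are limma's. The fit was tested on simulated data. Groups do not overlap where all values of 1 group lie above all of the other. Gene positions and shared exonic bases came from GENCODE 29 on GRCh38, which need not be the authors' release. Promoters came from RefSeq, with no entry for CCNE2, DSCC1, GINS4, MCM4, MCM5, POLD3, RPA2 and RPA3.

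The 50 genes and all lists were chosen with earlier results of these data known. Genes described in full were the called members, the 2 with the smallest p in each of 9 role groups, the 3 with the largest and the 3 with the smallest fold change, and MCM2, CDC6, CDT1, PCNA, CCNE1 and E2F1. From each comparison list up to 2 called genes were taken, with MKI67, CDKN1A and CCNA2. Partners in a complex, overlapping genes and CCND1 were named with their values known. Alternatives were pseudocounts of 0.1 and 5 TPM, no filter, a minimum mean of 5 TPM, medians of ratios, leaving out mitochondrial and ribosomal protein genes, limma without trend and with robust estimates, a replicate block, and each tumor left out in turn. No sample was left out of the main comparison.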

Additional observations from a re-analysis of the deposited data

How the results depend on the processing

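The median of the 50 genes stayed below 0 in every setting run, from -0.56 (without control tumor 2) to -0.23 (without control tumor 1). The count of the 50 that fell was 1. It was 0 with no filter on low values, without trend and with the replicate block, 2 with medians of ratios, and 0 to 8 with single tumors left out, and 1 rose with medians of ratios. Over all genes, 194 rose and 227 fell. With no filter these counts were 69 and 64, without trend 142 fell, with the replicate block 88 rose and 97 fell, and with single tumors left out 57 to 229 rose and 67 to 562 fell, with fewer samples in each. In the comparison lists 2 rose and 3 fell. With no filter 1 rose and 0 fell, with medians of ratios 1 and 6, without trend and with the replicate block 1 and 1, and with single tumors left out 1 to 2 rose and 0 to 19 fell. The cause of these differences between settings was not tested. Directions turned in TIPIN without irradiated tumor 3 (0.01; range over single tumors left out -0.37 to 0.01), in POLA2 without control tumor 1 (-0.03; -0.03 to 0.15), and in E2F1 without control tumor 2 (-0.20; -0.20 to 0.22) and without irradiated tumor 2 (-0.0017). The other settings of single genes gave 415 values with the same outcome, called or not, 36 that lost a call and 9 that gained one. Most of the 415 were from genes not called in the main fit, which had no call to lose. Only GMNN, POLD4, CCND3, UBE2S, ANLN and MDM2 could lose one. All 36 losses were in these genes, and CCND3 had none. The labels give no pairing of the tumors by replicate number. Deviations from the group means correlated at -0.0433, -0.0459 and -0.059 in same-numbered tumors, and at -0.0312 to 0.0752 in differently numbered ones. A weak pairing could give such values too, so they do not settle whether tumors were paired. With the block, limma gave an adjusted p of 0.116 for GMNN, 0.0932 for POLD4, 0.105 for ANLN and 0.0902 for MDM2. Read depth is unknown, so how far it limits low genes such as E2F2 cannot be given.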
